A study of Mus musculus with 6 samples.

Results

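The genes described here encode the proteins of the small (40S) subunit of the cytosolic ribosome. They were taken by name and annotation from the deposited table, as protein-coding rows named Rpsa, Fau or Rps followed by a number and, for some, a further letter or digit. The rule gave 32 of the 54532 genes in the table, and their levels were compared between hearts of Mrps5 conditional knockout mice (cKO) and of control mice (Ctrl).

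The 40S subunit binds the mRNA, carries the initiator tRNA to the start codon and hosts the decoding centre where codons are read. It joins the large (60S) subunit to form the translating ribosome. Its proteins are made in the cytoplasm, imported into the nucleolus, fitted onto the ribosomal RNA in a fixed order and exported as part of an immature pre-40S particle. In mammals the mRNAs of ribosomal proteins carry a run of pyrimidines at the capped end, the 5′ terminal oligopyrimidine (5′ TOP) motif, through which mTOR signalling controls their translation. Mrps5, the deleted gene, encodes a protein of the separate small subunit of the mitochondrial ribosome, uS5m, whose cytosolic relative uS5 is encoded by Rps2, 1 of the 32 genes.

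RNA was sequenced from the hearts of 3 Ctrl and 3 cKO mice. Both groups carried loxP-flanked Mrps5 alleles (Mrps5 fl/fl), and both received tamoxifen by intraperitoneal injection at 8 weeks of age, at 45 mg/kg per day for 5 days. Hearts were taken 12 weeks after tamoxifen. The cKO mice carried in addition MCM, a MerCreMer transgene under the αMHC promoter, which makes Cre active in cardiomyocytes once tamoxifen is given. The Ctrl mice lacked this transgene, so that loss of Mrps5 and exposure of cardiomyocytes to active Cre cannot be told apart. The study's methods describe the RNA as ventricular, and non-cardiomyocytes of the cKO hearts kept an intact Mrps5 gene.

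The libraries held between 15989322 and 24875499 reads assigned to genes. Levels are given as FPKM, fragments per kilobase of gene scaled to library size. Changes are differences of log2(FPKM + 1), cKO minus Ctrl, with the standard error and the Benjamini-Hochberg adjusted p of a limma fit over the 12944 genes whose mean was 0.5 FPKM or more, called at 0.05. The values of Mrps5 were 5.20, 6.45 and 6.33 FPKM in Ctrl against 1.12, 1.23 and 1.31 FPKM in cKO, a change of -1.65 ± 0.09 (SE, adjusted p = 0.00020, limma). Over all genes tested 16.3% rose and 17% fell. Of 6 cardiomyocyte markers, all abundant in every heart, 4 fell, with a list median of -0.60. Their summed level was 13722 to 17552 FPKM in Ctrl and 8369 to 15007 FPKM in cKO. Of 4 endothelial markers 3 fell, with sums of 103 to 119 FPKM and 67.6 to 80.0 FPKM. Of 5 fibroblast markers 1 rose and 1 fell, with sums of 128 to 150 FPKM and 113 to 124 FPKM, and of 4 macrophage markers 1 fell, with sums of 30.3 to 42.0 FPKM and 22.6 to 27.5 FPKM. None of 3 erythroid markers passed. Of 4 lymphocyte markers none was at a testable level, and Ms4a1 was at 0 in all hearts. Atrial markers varied between hearts of a group, with Myl7, the atrial myosin light chain, at 679, 98.6 and 18.1 FPKM in Ctrl, against 71.8, 170 and 495 FPKM in cKO. One library, cKO replicate 2, stood apart from the others of its group: it had no Ddx3y, Uty, Kdm5d or Eif2s3y reads, which are transcribed from the Y chromosome, and had Xist at 10.7 FPKM, against at most 0.13 FPKM in the other 5 hearts. The numbers of genes called in the main gene lists are also given without it where it moved them. In whole tissue, fewer cells of a type and less RNA per cell cannot be told apart, and the part of cell composition in the values that follow was not tested.

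The transcription starts that RefSeq annotates for these genes are shown first, because the 5′ TOP motif is what the mRNAs of ribosomal proteins are known to share. Promoters of 24 of the 32 genes matched by symbol in the RefSeq table (GRCm38.p6). A C at the annotated start followed by at least 4 pyrimidines, read on the strand of the gene, stood in 6 of their 29 promoters (20.7%), in 7 of 46 promoters of large-subunit genes (15.2%) and in 823 of all 32851 promoters (2.51%). With the run allowed to begin within 10 bases of the annotated start, the counts were 15 (51.7%), 26 (56.5%) and 30.7% of all promoters. Each line gives 10 bases before and 20 from the annotated start, 5′ to 3′, with the pyrimidines from the C that was found in capitals. Further pyrimidines can stand directly before the capitals, since the search did not extend upstream. In the first 6 the capitals begin exactly at the start, in Rps26 they begin 4 bases downstream, and Rpsa has no such C in this window.
Rps10 (chr17:27635225-27635254, minus strand): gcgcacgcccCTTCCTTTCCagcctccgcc
Rps15a (chr7:118116128-118116157, minus strand): tttctgccatCTTCCCTCgccggtgagtga
Rps18 (chr17:33955646-33955675, minus strand): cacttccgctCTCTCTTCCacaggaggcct
Rps21 (chr2:180257369-180257398, plus strand): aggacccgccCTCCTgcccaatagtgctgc
Rps27 (chr3:90213629-90213658, minus strand): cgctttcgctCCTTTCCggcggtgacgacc
Fau (chr19:6057937-6057966, plus strand): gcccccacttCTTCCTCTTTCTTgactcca
Rps26 (chr10:128626487-128626516, minus strand): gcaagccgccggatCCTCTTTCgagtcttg
Rpsa (chr9:120127756-120127785, plus strand): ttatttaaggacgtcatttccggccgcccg

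As a group, the mRNAs of the small-subunit proteins were more abundant in the cKO hearts. All 32 genes were tested, 22 rose (68.8%, against 16.3% of all genes tested), 0 fell (against 17% of all genes tested), and 10 did not pass the test. In 28 genes all 3 cKO hearts lay above all 3 Ctrl hearts, which was the case for 24.8% of all genes tested. The median log2 fold change was 0.41, against -0.02 over all genes tested, and the median ratio of the group means was 1.33, with single genes between 0.912 and 2.07. Among the 1473 other protein-coding genes whose mean was 25 FPKM or more, 334 rose (22.7%) and the median was -0.05. The balance over all genes depended on the scaling: 2110 rose and 2205 fell with the deposited one, 2650 and 1620 with the mitochondrially encoded genes left out of the library size, 3273 and 1381 with scaling to total reads, and 3387 and 1449 with voom on the recovered reads. Under these last 3, 26, 28 and 29 of the 32 genes rose. Without cKO replicate 2, 24 of the 32 genes rose, 21 of them among the 22, and the median was 0.44.

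**Figure D1:**
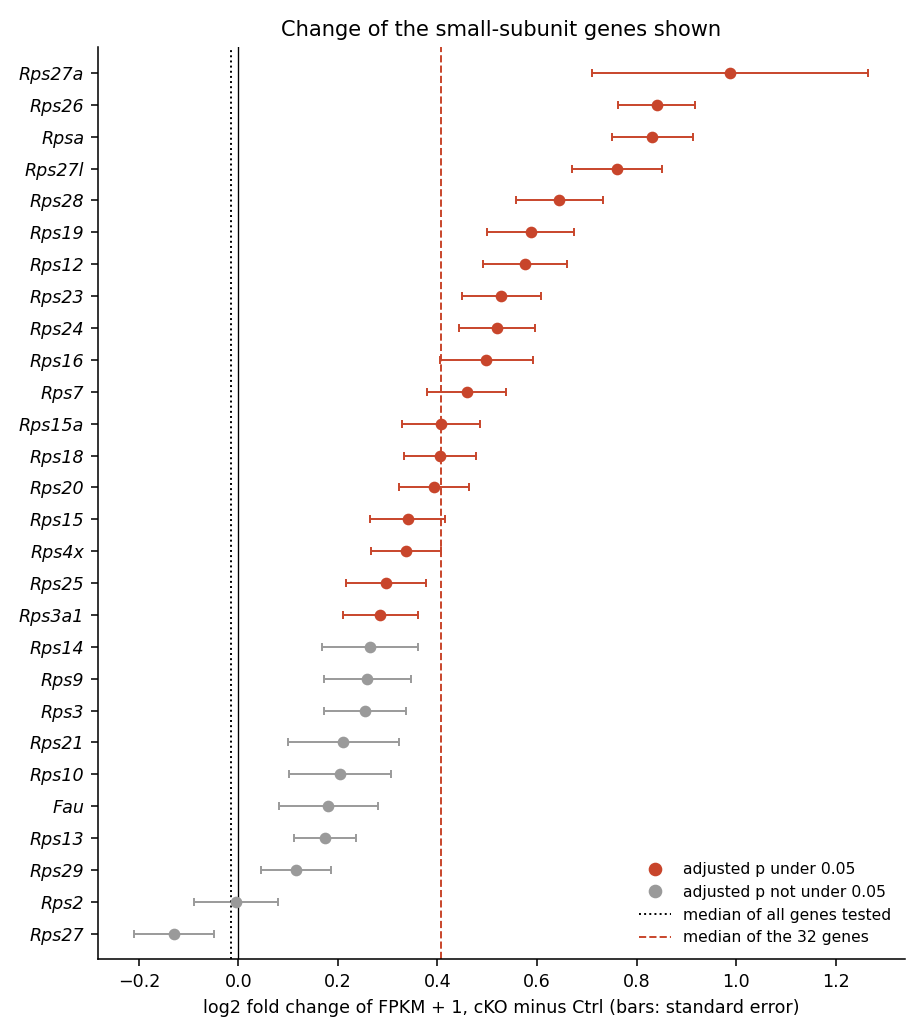
Log2 fold change of FPKM + 1, cKO minus Ctrl, for 28 of the 32 small-subunit genes, with the standard error of the limma fit (3 hearts per group). Red points have an adjusted p under 0.05, the dashed line marks the median of the 32 genes (0.41) and the dotted line that of all genes tested (-0.02). With the deposited scaling, Rps2 and Rps27 are the only genes shown left of 0.

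The increase was seen in each cKO heart. Relative to the Ctrl mean of each gene, the median over the 32 genes was 0.01, 0.02 and -0.04 on the log2 scale in the 3 Ctrl hearts. It was 0.46, 0.32 and 0.42 in the 3 cKO hearts, both in the order of their replicate numbers. The cKO replicate 1 heart was the highest of its group for 27 genes and the cKO replicate 2 heart the lowest for 23. Together the 32 genes took 0.823% (95% Wilson interval 0.819 to 0.827), 0.781% (0.778 to 0.785) and 0.793% (0.790 to 0.797) of the reads in the Ctrl hearts. In the cKO hearts they took 1.22% (1.22 to 1.23), 1.12% (1.12 to 1.13) and 1.15% (1.15 to 1.16), so every cKO share lay above every Ctrl share. These intervals cover counting error only. With the mitochondrially encoded genes left out of the total, the shares were 0.989 to 1.05% in Ctrl and 1.34 to 1.51% in cKO. The hearts of a group resembled each other for most genes: the coefficient of variation was below 10% for 29 genes in Ctrl and for 28 in cKO, with medians of 4.34% and 7.08%.

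**Figure D2:**
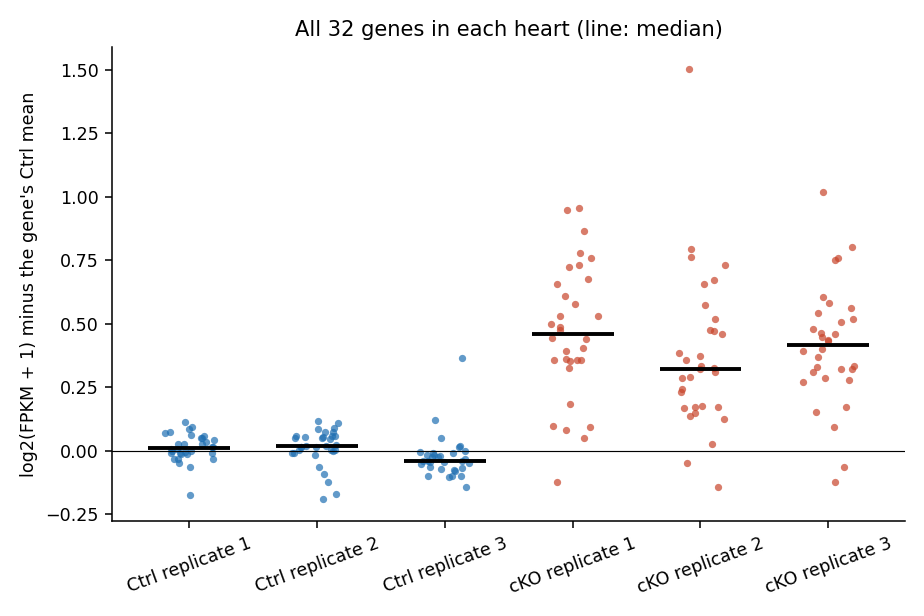
Log2(FPKM + 1) of each of the 32 genes in each heart after subtraction of the gene's Ctrl mean, with the median of each heart as a line. The medians lie between -0.04 and 0.02 in the 3 Ctrl hearts and between 0.32 and 0.46 in the 3 cKO hearts. The highest point, in cKO replicate 2, is Rps27a.

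The genes did not change by the same amount. When each heart was centred on the median of the 32 genes, 10 genes still lay higher in every cKO heart than in every Ctrl heart, among them Rps26, Rpsa, Rps27l, Rps28, Rps19, Rps23, Rps24 and Rps16. Another 11 lay lower in every cKO heart (Rps27, Rps2, Rps29, Rps13, Fau, Rps10, Rps3, Rps9, Rps14, Rps3a1 and Rps25), and 11 overlapped. With the same centring 5.45% of all genes tested lay higher in every cKO heart and 67.1% lower. Centring on the median of these genes places about equal numbers on either side, so the balance of 10 and 11 is no result. Rps10 is in the lower set on the log2(FPKM + 1) scale, which compresses changes at its level of under 1 FPKM. In the following the genes are taken by where their proteins sit on the subunit, a grouping made with these values known and therefore a description without a test.

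The first set lies on the path of the mRNA through the subunit. Of 4 genes for exit and platform proteins (Rps26, Rps28, Rpsa and Rps14) 3 rose, with a median log2 fold change of 0.74. Of 5 genes for entry and decoding-centre proteins (Rps2, Rps3, Rps9, Fau and Rps23) 1 rose, with a median of 0.26. The counts depended on the scaling and on 1 library. Of the 5 entry genes 3 rose with median-of-ratios scaling, with scaling without mtDNA-encoded genes or without cKO replicate 2, and 4 with scaling to total reads or voom. Of the 4 exit genes all rose under these settings other than median-of-ratios scaling, where 3 did. The median of the exit genes was above that of the entry genes under every setting, at 0.74 and 0.31 without cKO replicate 2 and at 0.89 and 0.41 with voom. These are members chosen with their values known, and the difference was not tested.

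Rps26 (chr10:128624534-128626747) encodes eS26, which lines the channel where the mRNA leaves and contacts the mRNA upstream of the start codon. It stood at 86.6, 85.9 and 84.8 FPKM in the Ctrl hearts and at 167, 146 and 150 FPKM in the cKO hearts. The 3 Ctrl hearts were nearly identical and every cKO heart lay far above them, by 0.84 ± 0.08 on the log2 scale (SE, adjusted p = 0.0011, limma). Rpsa (chr9:120127689-120132369) encodes uS2, also known as a laminin receptor precursor, which sits between head and body on the solvent side. It stood at 151, 157 and 147 FPKM in Ctrl, against 293, 264 and 256 FPKM in cKO. The groups were again far apart, by 0.83 ± 0.08 on the log2 scale (SE, adjusted p = 0.0012). Rps28 (chr17:33819027-33824562), for eS28 beside the exit channel in the head, was at 86.7, 76.6 and 77.5 FPKM in Ctrl, against 133, 128 and 117 FPKM in cKO, with no overlap (0.65 ± 0.09, adjusted p = 0.0029). Rps14, for the platform protein uS11, was at 384 ± 24.8 FPKM in Ctrl and 462 ± 38.8 FPKM in cKO (mean ± SD, n = 3 hearts each). Its hearts did not overlap, but the change of 0.26 ± 0.10 did not pass (adjusted p = 0.073). It passed without cKO replicate 2 (adjusted p = 0.037), with scaling without mtDNA-encoded genes (0.035), with scaling to total reads (0.014) and with voom (0.0092).

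At the entry side and the decoding centre, Rps2 (chr17:24718116-24721929) encodes uS5, which forms part of the entry channel. It was the third most abundant of the 32 by Ctrl FPKM and stood at 413, 455 and 430 FPKM in Ctrl, against 463, 418 and 414 FPKM in cKO. The hearts of both groups were mixed, and the log2 change was -0.00 ± 0.08 (SE, adjusted p = 0.97), whose sign depended on the scaling. Rps3 and Rps9, for uS3 and uS4 on the other sides of the same channel, had no overlap but did not pass the test, with changes of 0.26 ± 0.08 (adjusted p = 0.052) and 0.26 ± 0.09 (adjusted p = 0.058). Both passed under each of the 4 other scalings and also without cKO replicate 2 (adjusted p = 0.028 and 0.038), and Rps3 passed with a minimum mean of 1 FPKM (adjusted p = 0.04997). Fau (chr19:6057888-6059524) encodes eS30 fused to a ubiquitin-like protein and stood at 246, 244 and 235 FPKM in Ctrl, against 310, 246.1 and 269 FPKM in cKO. The lowest cKO heart lay just above the highest Ctrl heart, and the change of 0.18 ± 0.10 did not pass (adjusted p = 0.20), though it did with scaling to total reads (adjusted p = 0.036) and with voom (0.028). Rps23, for uS12 at the decoding centre, was the exception of this set: it rose from 175 ± 8.58 to 253 ± 13.2 FPKM (0.53 ± 0.08, adjusted p = 0.0038).

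**Figure D3:**
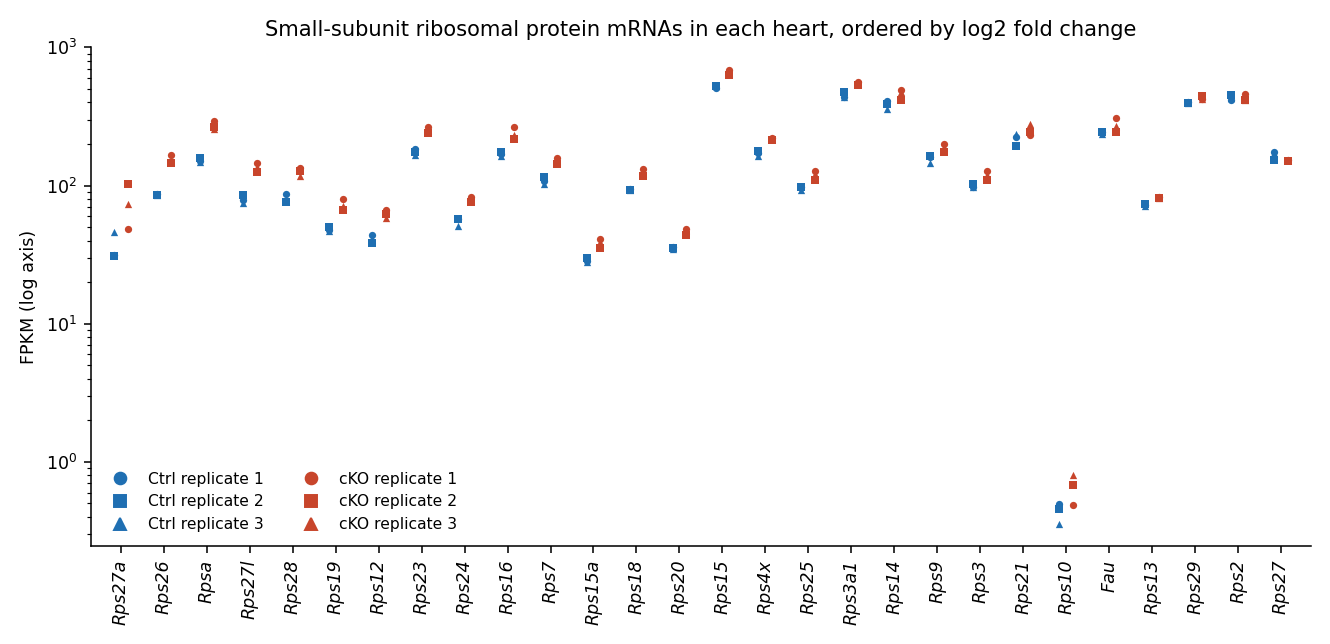
FPKM (log axis) of 28 of the 32 small-subunit genes in each of the 6 hearts, ordered by log2 fold change from Rps27a on the left to Rps27 on the right. Blue symbols are Ctrl and red symbols cKO hearts, with 1 shape per replicate number. Rps10 lies at 0.36 to 0.81 FPKM, and the other 27 genes shown lie between 28.1 and 685.5 FPKM.

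The head of the subunit holds the products of 14 of the genes. Of these, 11 rose (78.6%, against 16.3% of all genes tested), and all 14 had a positive change. The median log2 fold change was 0.41 (11 rose and the median was 0.44 without cKO replicate 2). With 1 heart left out 8 to 11 rose. Rps19, for eS19, is known from Diamond-Blackfan anaemia, in which a copy of such a gene is mutated. It went from 48.0 ± 1.60 to 72.8 ± 6.82 FPKM (log2 fold change 0.59). Rps12, for eS12 in the beak of the head, went from 41.3 ± 2.71 to 62.1 ± 4.25 FPKM (0.58). Rps16, Rps18 and Rps15, whose products uS9, uS13 and uS19 reach towards the tRNAs, rose by 0.50, 0.41 and 0.34 on the log2 scale. Rps15 (chr10:80292453-80294114) had the highest Ctrl FPKM of the 32, at 506, 524 and 522, but ranked 5 when scaled to the length of a principal transcript. It stood at 685.5, 633 and 647.5 FPKM in the cKO hearts. Its groups were clearly apart (adjusted p = 0.015), though the call was lost without Ctrl replicate 1 (adjusted p = 0.053) or Ctrl replicate 3 (adjusted p = 0.052) and without a filter on low values (adjusted p = 0.051). Rps20, for uS10, and Rps25, for eS25, rose by 0.39 and 0.30. The call of Rps25 was lost when any of the hearts other than cKO replicate 2 was left out, with adjusted p of 0.072, 0.075 and 0.098 without Ctrl replicates 1, 2 and 3 and of 0.077 and 0.085 without cKO replicates 1 and 3.

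Rps29 (chr12:69157722-69159186) encodes uS14, a small zinc-binding protein of the head, and was at 401, 395 and 397 FPKM in Ctrl, against 421, 448 and 425 FPKM in cKO. Its cKO hearts all lay above the Ctrl hearts by a small margin, and the change of 0.12 ± 0.07 did not pass (adjusted p = 0.25). It did pass under 2 of 15 alternative settings (lowest adjusted p = 0.023). Rps10 (chr17:27630418-27636669) encodes eS10, which is ubiquitylated when ribosomes stall. Its row held 0.50, 0.46 and 0.36 FPKM in Ctrl and 0.49, 0.69 and 0.81 FPKM in cKO, with as few as 19 reads in a heart, where the next lowest of the 32 genes had 1179. The groups overlapped and the change of 0.20 ± 0.10 did not pass (adjusted p = 0.17). Most reads of this sequence were assigned to a copy, which is described below.

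Rps27a (chr11:29545846-29548109) encodes ubiquitin fused to the head protein eS31 and is 1 of the genes that supply cells with ubiquitin. It was at 31.4, 31.0 and 46.0 FPKM in Ctrl, against 48.6, 102 and 72.9 FPKM in cKO. It had the largest change of the 32 and also the widest spread, at 23.7% of the mean in Ctrl and 36.1% in cKO. The highest Ctrl heart nearly reached the lowest cKO heart. The change of 0.99 ± 0.28 passed (adjusted p = 0.034), but not without Ctrl replicate 1 (adjusted p = 0.096), Ctrl replicate 2 (0.10), cKO replicate 2 (0.060) or cKO replicate 3 (0.081), nor without a filter on low values (0.089). Fau, for the other fusion protein, is given above.

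The body and platform hold the products of 17 of the genes, with Rps27l, the paralog of Rps27, counted neither here nor in the head. Of the 17, 10 rose (58.8%, against 16.3% of all genes tested), 15 had a positive change, and the median was 0.34 (12 rose without cKO replicate 2). With scaling without mtDNA-encoded genes, to total reads and with voom 13, 14 and 15 rose, against 12, 13 and 13 of the head genes. Of all genes tested 20.5%, 25.3% and 26.2% rose there. With 1 heart left out 7 to 12 rose. Rps24 and Rps7, for eS24 and eS7, are further genes of Diamond-Blackfan anaemia and rose by 0.52 and 0.46 on the log2 scale. Rps15a, for uS8, rose by 0.41.

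Rps4x (chrX:102184941-102189394) is the X-linked gene for eS4, with 172, 178 and 164 FPKM in Ctrl and 220, 215 and 216 FPKM in cKO. The cKO hearts were closely grouped above the Ctrl hearts, with cKO replicate 2, the library with Xist, the lowest of them (0.34 ± 0.07, adjusted p = 0.012; adjusted p = 0.052 without Ctrl replicate 3). Rps3a1 (chr3:86137940-86142702) encodes eS1 of the platform, which contacts initiation factor eIF3. It was the second most abundant in Ctrl, at 440, 473.5 and 437 FPKM, and stood at 564, 533.5 and 549 FPKM in cKO. No hearts overlapped, and the change of 0.29 ± 0.08 passed (adjusted p = 0.028), but not without Ctrl replicate 1 (adjusted p = 0.087), Ctrl replicate 3 (0.10), cKO replicate 1 (0.075) or cKO replicate 3 (0.075), nor without a filter on low values (0.078).

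Rps13 (chr7:116331505-116334195) encodes uS15 and had tightly grouped values, at 72.4, 73.4 and 71.3 FPKM in Ctrl and 82.3, 81.4 and 81.6 FPKM in cKO. The groups were fully apart by a small step, and the change of 0.17 ± 0.06 did not pass (adjusted p = 0.073). It did pass under 3 of 15 alternative settings (lowest adjusted p = 0.0075). Rps21, for eS21, overlapped between groups at 218 ± 22.6 and 253 ± 25.2 FPKM (adjusted p = 0.19). It passed under 1 of the 15 settings (adjusted p = 0.045).

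Rps27 (chr3:90212522-90213651) encodes eS27, a zinc-binding protein of the platform, and mice have further genes for nearly the same protein. Rps27l (chr9:66946086-66949516) is the diverged paralog, known as a target of p53, and is 1 of the 32. Rps27rt (chr9:114982366-114982739) carries the same coding bases as Rps27 and did not fall under the naming rule. The first 60 coding bases are shown because the comparison of these paralogs rests on how well reads can tell them apart. Capitals mark the 18 bases at which Rps27l differs from Rps27.
Rps27: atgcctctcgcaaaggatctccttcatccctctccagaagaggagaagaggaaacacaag
Rps27rt: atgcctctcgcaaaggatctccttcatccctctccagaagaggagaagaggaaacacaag
Rps27l: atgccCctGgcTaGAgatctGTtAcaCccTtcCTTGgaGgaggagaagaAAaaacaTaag

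Over the whole coding sequence of 255 bases Rps27 and Rps27rt were identical, and Rps27l matched Rps27 at 194 bases (76.1%). Of the 150-base windows of the Rps27 transcript, 98.0% occurred without a mismatch in another annotated transcript, while no such window of Rps27l did. Reads of Rps27l can therefore be assigned, and those of Rps27 and Rps27rt cannot be told apart over most of their length.

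Rps27l stood at 79.1, 86.0 and 74.2 FPKM in Ctrl, against 146, 126 and 136 FPKM in cKO. All cKO hearts lay far above the Ctrl hearts (0.76 ± 0.09, adjusted p = 0.0021). Rps27 was at 175, 153 and 173 FPKM in Ctrl, against 152.9, 151 and 152.9 FPKM in cKO. Ctrl replicate 2 was level with the cKO hearts, and the change of -0.13 ± 0.08 did not pass (adjusted p = 0.25) and turned to 0.02 when values were scaled to total reads. Rps27rt varied between hearts of a group, at 73.2, 119 and 77.8 FPKM in Ctrl and 97.0, 61.5 and 129 FPKM in cKO (0.06 ± 0.29, adjusted p = 0.88). The ratio of Rps27l to Rps27, which does not depend on library scaling, was 0.451, 0.563 and 0.430 in Ctrl and 0.954, 0.835 and 0.887 in cKO. It differed by 0.90 on the log2 scale with all cKO hearts above all Ctrl hearts (exact permutation test, two-sided, p = 0.1, the smallest that 3 against 3 hearts allow). A second ratio, with Rps27rt added to Rps27, was taken from reads scaled to library size and not divided by gene length. It was 0.307, 0.344 and 0.290 in Ctrl and 0.608, 0.570 and 0.532 in cKO, a difference of 0.86 on the log2 scale (exact permutation p = 0.1, n = 3 hearts each). Its level cannot be set beside that of the first ratio, which is one of FPKM.

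A comparison of the same kind for eS4 gave no separation. Rps4l, a row annotated as a transcribed processed pseudogene and not 1 of the 32, stood at 22.7, 17.5 and 16.3 FPKM in Ctrl, against 43.4, 19.8 and 20.9 FPKM in cKO. Its ratio to Rps4x was 0.132, 0.0981 and 0.0994 in Ctrl and 0.197, 0.0921 and 0.0967 in cKO. The cKO replicate 1 heart alone was high, and the hearts overlapped (difference 0.15, exact permutation p = 1.0, n = 3 hearts each).

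**Figure D4:**
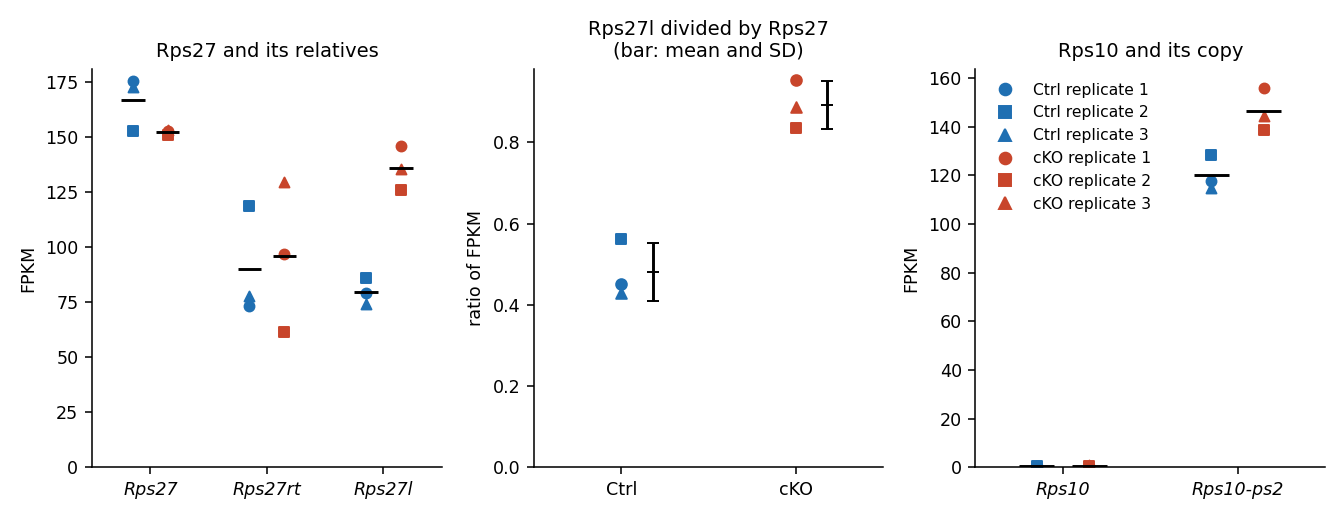
Left, FPKM of Rps27, Rps27rt and Rps27l in each heart with the group means as lines. Middle, Rps27l divided by Rps27, 0.430 to 0.563 in Ctrl and 0.835 to 0.954 in cKO. Right, FPKM of Rps10 (under 1 in every heart) and of its processed copy Rps10-ps2 (115 to 156).

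Ribosomal protein genes have many processed copies in the genome, and reads can be assigned to the gene or to a copy. Of the 32 genes, 26 shared at least 1 window of 150 bases with another annotated transcript, and 6 shared none, among them Rps3, Rps15, Rps21 and Rps27l. The share of windows was highest for Rps27 (98.0%), Rps12 (87.2%), Rps13 (75.0%), Fau (70.5%), Rps27a (66.0%) and Rps7 (63.8%). It does not measure how many reads were assigned to copies. For Rps13 and Fau these were 3.31% and 2.31% of the reads of gene and copies, against 98.1% for Rps10, with 44.2% of windows shared. The 15 genes with under 20% of windows shared had 10 that rose and a median of 0.39, against 12 of 17 and 0.41 for the others. For Rps10 the copy held most of the signal. Its processed copy Rps10-ps2, identical at 491 of 496 coding bases compared (99.0%), stood at 117, 128 and 115 FPKM in Ctrl, against 156, 139 and 144 FPKM in cKO. The copy rose by 0.28 ± 0.08 on the log2 scale (adjusted p = 0.038), though not when any heart other than Ctrl replicate 2 or cKO replicate 2 was left out (adjusted p = 0.084 to 0.12), and 98.1% of the reads of gene and copy together were assigned to it. The share assigned to copies also passed 20% for Rps12 (26.8%) and Rps7 (22.2%), and Rps12-ps3 rose by 0.40 ± 0.09 (adjusted p = 0.016, but 0.051 and 0.054 without Ctrl replicates 1 and 3 and 0.052 without cKO replicate 3) beside 0.58 for Rps12. With reads of each gene and its copies summed, 28 of 32 sums lay higher in every cKO heart than in every Ctrl heart and 4 overlapped (Rps2, Rps27, Rps21 and Fau). The median log2 ratio of the means was 0.41 for the sums and 0.42 for the genes alone. The sum for Rps10 was apart between the groups, with a log2 ratio of 0.29.

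The 32 genes lay on 14 chromosomes, with 9 on chromosome 7, and 5 overlapped another tested gene, among them Rps18, Rps21, Rps25 and Rps28. Between the start and end of 10 of them lay 20 annotated small nucleolar RNA genes, whose products guide modification of ribosomal RNA. Of these 10 genes 7 rose, with a median of 0.41, the same as for the other 22. Of the 6 genes with a C and at least 4 further pyrimidines from the RefSeq start, shown above, 2 rose (Rps15a and Rps18), with changes from -0.13 to 0.41 and a median of 0.21. Of the 18 genes with a promoter in the table and no such C at that base, 14 rose, with changes from -0.00 to 0.84 and a median of 0.48. These are counts on annotated starts, which need not be the starts used in these hearts. The 6 include Rps10, at under 1 FPKM and with 98.1% of its reads assigned to copies. They also include Rps27, with 98.0% of windows shared. Calls in both sets changed with the processing: of the 6, Fau gained the call under 2 of 15 alternative settings and Rps21 under 1. The difference between the sets was not tested.

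Most genes for the 60S subunit also rose. Of 52 large-subunit genes 50 were tested, 36 rose (72.0%), 1 fell, and the median log2 fold change was 0.44 (38 and 1 without cKO replicate 2). With 1 heart left out 26 to 38 rose. Rpl3, for uL3 near the peptidyl transferase centre, rose most, from 57.9, 47.5 and 46.9 FPKM to 165, 157 and 143 FPKM (1.60 ± 0.11, adjusted p = 0.000385). Rpl3l, its paralog of striated muscle, was the gene that fell, from 186, 207 and 196 FPKM to 41.0, 35.0 and 62.4 FPKM (-2.11 ± 0.20, adjusted p = 0.0011). Rpl3l thus lay above Rpl3 in every Ctrl heart and below it in every cKO heart. Rpl17 had the next largest positive change but varied from 35.7 to 99.8 FPKM in Ctrl and from 49.4 to 142 FPKM in cKO (0.89 ± 0.51, adjusted p = 0.22). The row of Rpl24 held 0.37 to 0.66 FPKM over the 6 hearts (-0.14, adjusted p = 0.30). Reads assigned to copies were not examined for large-subunit genes, so this value need not be the level of its mRNA. Of the 28 genes for the small subunit of the mitochondrial ribosome, Mrps5 itself not counted, 4 rose (14.3%, against 16.3% of all genes tested). Another 6 fell (21.4%, against 17%), and the median was 0.00 (2 rose and 3 fell without cKO replicate 2). With scaling to total reads or with voom, 9 rose (32.1%, against 25.3% and 26.2% of all genes tested). Under both, 2 fell (7.14%, against 10.7% and 11.2%).

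Most genes for factors that build and export the pre-40S particle rose as well. Of 23 tested 15 rose (65.2%), 1 fell, and the median was 0.39 (16 rose and 0 fell without cKO replicate 2). The count depended on single hearts: 9, 10 and 8 rose without Ctrl replicates 1, 2 and 3, and 12 and 10 without cKO replicates 1 and 3. Without a filter on low values 9 rose. The median stayed between 0.34 and 0.44 with 1 heart left out. Rrp12, an export factor of pre-ribosomal particles, went from 8.50, 8.36 and 6.61 FPKM to 29.4, 34.3 and 22.3 FPKM (1.74 ± 0.17, adjusted p = 0.0012). Rps19bp1, a nucleolar protein that binds eS19, went from 8.67, 8.97 and 7.33 FPKM to 17.9, 17.1 and 19.3 FPKM (1.04 ± 0.09, adjusted p = 0.0010). Neither had any overlap between the groups. At the other end, Emg1, a methyltransferase of 18S ribosomal RNA, had a change of 0.09 ± 0.07 (adjusted p = 0.35), and Csnk1e, a casein kinase acting late on the particle, fell by 0.28 on the log2 scale (adjusted p = 0.040), a call lost under each other scaling and whenever a heart other than Ctrl replicate 1 was left out (adjusted p = 0.066 to 0.12).

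Of 6 genes for chaperones and modifying enzymes of single small-subunit proteins, 5 were tested and 3 rose, with a median of 0.26 (2 rose without cKO replicate 2). With 1 heart left out 1 to 2 rose. Prmt3, the arginine methyltransferase of uS5, the product of Rps2, went from 2.41, 2.08 and 2.29 FPKM to 5.92, 4.86 and 5.08 FPKM (0.94 ± 0.09, adjusted p = 0.0012). All cKO hearts were above all Ctrl hearts, while Rps2 itself did not differ between the groups beyond its spread. Pdcd2l rose by 0.27 (adjusted p = 0.031), but not without Ctrl replicate 2 or 3 or cKO replicate 1 or 3 (adjusted p = 0.078 to 0.10), and its relative Pdcd2, which carries uS5 during assembly, was listed at 0 in every heart. Tsr2, the carrier of eS26, had a change of 0.08 ± 0.10 (adjusted p = 0.57), and Aamp one of 0.02 ± 0.09 (adjusted p = 0.88).

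Among 8 genes for the 40S scaffold protein Rack1 and factors that mark or rescue stalled ribosomes, 2 rose and 0 fell. The median was 0.28 (3 rose without cKO replicate 2). The count depended on the scaling: 3 rose with median-of-ratios scaling and with scaling without mtDNA-encoded genes. With scaling to total reads and with voom 6 of the 8 rose, with medians of 0.41 and 0.49. Of all genes tested 25.3% and 26.2% rose there, against 16.3% with the deposited scaling. Rack1, which binds the head, went from 57.3, 56.0 and 54.1 FPKM to 87.8, 77.6 and 76.8 FPKM, with no overlap (0.52 ± 0.08, adjusted p = 0.0040). Ascc3, a helicase that splits stalled ribosomes, rose by 0.37 (adjusted p = 0.017), but not without Ctrl replicate 1 (0.055) or 2 (0.057). Otud3, a deubiquitinase of stalled 40S subunits, had a change of 0.39 ± 0.15 that did not pass (adjusted p = 0.093). It passed without cKO replicate 2 (adjusted p = 0.030), with scaling to total reads (0.037) and with voom (0.038). Usp21 and Rnf10 had the lowest changes, -0.00 ± 0.07 and -0.09 ± 0.10, neither past the test (adjusted p = 0.97 and 0.54).

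Of 21 genes for initiation factors that act on the 40S subunit 13 rose and 0 fell, with a median of 0.41 (10 to 13 rose with 1 heart left out). Eif2s2, a subunit of the factor that brings the initiator tRNA, went from 14.5, 14.6 and 13.7 FPKM to 35.3, 33.7 and 33.8 FPKM (1.21 ± 0.07, adjusted p = 0.00018). Eif3c, a core subunit of the eIF3 complex bound at the platform, went from 37.6, 36.6 and 36.6 FPKM to 83.3, 77.0 and 88.7 FPKM (1.15 ± 0.08, adjusted p = 0.000385). Both were tight within and far apart between groups. The subunits of eIF3 did not move alike, since Eif3f had a change of -0.11 ± 0.07 (adjusted p = 0.25), and Eif5b, for the factor that joins the subunits, had a change of -0.15 ± 0.08 (adjusted p = 0.20).

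Of 8 genes tested for known regulators of 5′ TOP mRNAs 1 rose (12.5%, against 16.3% of all genes tested), 1 fell (12.5%, against 17%), and the median was 0.04. The one that rose was Eif4ebp1, an inhibitor of cap-dependent translation that mTOR inactivates, at 42.6, 41.9 and 30.8 FPKM in Ctrl and 114, 89.3 and 99.1 FPKM in cKO (1.38 ± 0.15, adjusted p = 0.0016). The one that fell was its relative Eif4ebp2, by 0.36 on the log2 scale (adjusted p = 0.019), but not without Ctrl replicate 1 (0.066) or 3 (0.060), nor with scaling without mtDNA-encoded genes (0.073) or to total reads (0.11), nor with voom (0.099). Cnbp, which binds the motif, had a change of 0.26 ± 0.11 (adjusted p = 0.10), and Tia1, a repressor of these mRNAs under stress, one of -0.08 ± 0.11 (adjusted p = 0.60). Cnbp did pass with scaling without mtDNA-encoded genes (adjusted p = 0.045), to total reads (0.020) and with voom (0.013). Under each of these 3 settings 3 of the 8 genes rose (37.5%) and 0 fell, with list medians of 0.11, 0.17 and 0.20. Of all genes tested 20.5%, 25.3% and 26.2% rose there.

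**Figure D5:**
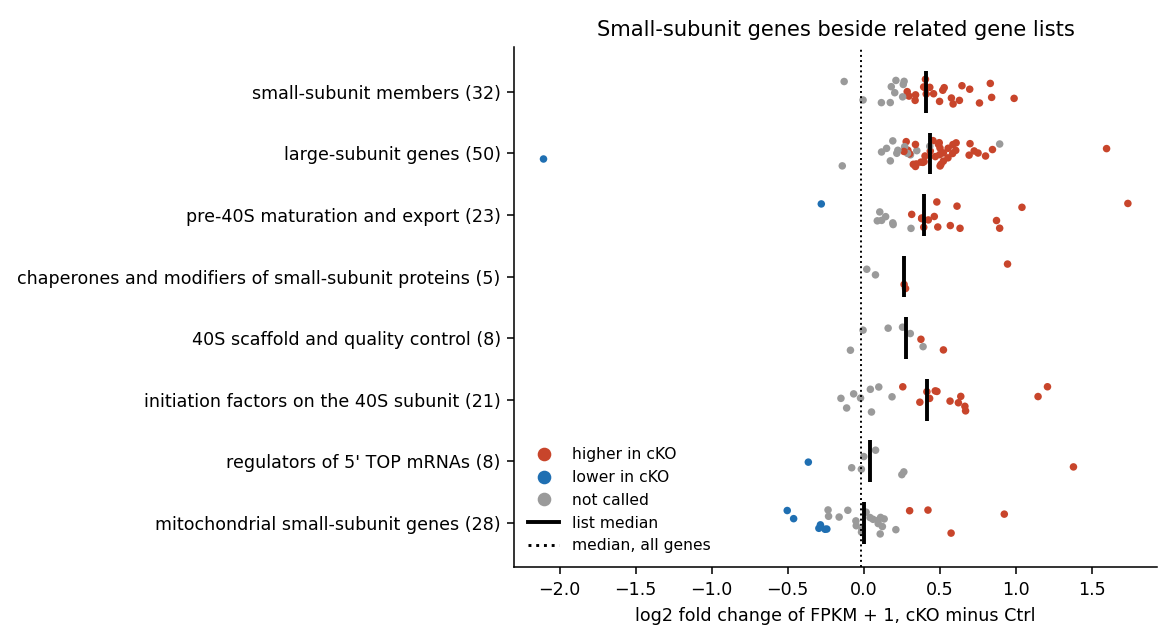
Log2 fold change of FPKM + 1, cKO minus Ctrl, of every tested gene in the lists, with the number tested in brackets. Red genes rose, blue genes fell and grey genes were not called, short lines mark list medians and the dotted line the median of all genes tested (-0.02). The medians of the small-subunit genes (0.41), the large-subunit genes (0.44), the pre-40S factors (0.39) and the initiation factors (0.41) lie to the right of those of the 5′ TOP regulators (0.04) and the mitochondrial small subunit (0.00).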

How the data were processed

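Per the labels and the study's methods, poly-A RNA was sequenced as paired ends, aligned with HISAT2 2.0.5 and counted with featureCounts 1.5.0-p3. The deposited FPKM values were computed by the authors from reads and gene length (an other, gene-level value taken as given). Each library was divided by 0.913 to 0.980 times its gene reads in Ctrl and 1.06 times in cKO, so depth had already been adjusted between hearts. Strand use and the treatment of reads with several alignments were not stated. The submitters' notes name mm9, but 53499 of 54409 shared identifiers had the start and end of GENCODE M21, so coordinates are GRCm38. FPKM times length gave whole reads for 100% of values within 0.05 of a read. FPKM divides by the combined exons, 1.00 to 6.05 times the length of a principal transcript, so levels of different genes are not numbers of mRNAs.

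The comparison used log2(FPKM + 1), a scale that shrinks changes of low genes, and limma 3.58.1 in R 4.3.3 (lmFit, eBayes with a trend, no covariates, two-sided), checked on simulated data. Groups and replicate numbers came from the labels, each sample was taken as 1 mouse, and p-values measure the spread between these samples. Per-heart values are given for the 6 largest and 6 smallest changes (as far as those genes are named here), the 3 genes with the highest Ctrl FPKM and the paralogs. The named genes of each list are those with the 2 largest and 2 smallest changes (Ascc3 was added after its values were seen). Genes and lists were chosen with earlier results of these data known. Windows of 150 bases were compared with all GENCODE transcripts without mismatch. Some genes of the family are not reported here by name.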

Additional observations from a re-analysis of the deposited data

How the results depend on the processing

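Across 15 alternatives, 425 of 479 comparisons of single genes kept their direction and their side of the threshold, 22 lost the call, 23 gained it and 9 changed sign, and 17 of the 32 genes kept both throughout. The changes of sign were in Rps2 and Rps27, neither of them called. Rps2 became 0.022 with median-of-ratios scaling, 0.084 with scaling without mtDNA-encoded genes, 0.15 with scaling to total reads and 0.15 with voom on the recovered reads, and ranged from -0.056 to 0.032 when 1 heart was left out. Rps27 became 0.021 with scaling to total reads and 0.022 with voom. The number of genes that rose was 22 with a pseudocount of 0.1, 19 without a filter, 23 of 31 with a minimum mean of 1 FPKM, 24, 26, 28 and 29 under the 4 changes of scaling in the order above, and 17 to 24 with 1 heart left out, and 0 fell in each. Their median was 0.49 with scaling without mtDNA-encoded genes, 0.55 with scaling to total reads and 0.57 with voom, and 0.37 to 0.44 with 1 heart left out. The scaling also moved the median of all genes, from -0.02 to 0.13 with voom, where the genes described here lay 0.44 above it, against 0.42 with the deposited scaling.

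Over all genes, 3273 rose with scaling to total reads, 3387 with voom and 1400 without Ctrl replicate 3, against 2110, and 1450 fell without Ctrl replicate 3, against 2205. In a fit with a replicate block, 20 genes rose, Rps25 (adjusted p = 0.059) and Rps3a1 (adjusted p = 0.072) losing the call. Deviations of hearts with the same number correlated at -0.06, 0.17 and -0.01 across genes. Those of hearts with different numbers correlated at -0.14 to 0.16. Whether hearts were paired, for example by litter, cannot be told from correlations this small, and the main fit took them as unpaired. Beyond these, depth limits only Rps10. 3 hearts per group set the smallest exact permutation p at 0.1.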
